A study of Mus musculus with 51 samples.

Results

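The high-dose and low-dose mammary glands of BALB/c mice, both taken 4 hr after the last exposure, were set directly against each other, without the sham-irradiated glands. The 4 HD arrays and the 4 LD arrays, chosen by their labels, are 8 of the 51 arrays of the series. BALB/c HD glands came from females that had received 4 weekly fractions of 1.8 Gy of X-rays, starting at 8 weeks of age. BALB/c LD glands came from females of the same strain and starting age that had received 4 weekly fractions of 7.5 cGy. Per the methods, HD was given at a higher dose rate than LD, so dose and dose rate cannot be told apart. In both groups the fourth pair of mammary glands (MG) was collected 4 hr after the last fraction and the inguinal lymph node was cut away, with 1 mouse per array. The remaining arrays hold sham glands of the same strain and hour (3 arrays), glands at 1 month, the same groups of the C57BL/6 strain, and blood. The design asks how a high-dose response differs from that to a low dose in a strain known for its sensitivity to radiation-induced mammary tumors. A whole gland holds fat cells, ducts, vessels, stroma and immune cells at once, so that for any list below fewer cells of a type and less RNA per cell cannot be told apart.

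Ionizing radiation breaks DNA, and the breaks activate the kinase ATM, which in turn stabilizes the transcription factor p53. Active p53 switches on genes that halt the cell cycle, genes that promote cell death, and its own inhibitor Mdm2. The mammary duct is built of an inner layer of luminal cells, marked by keratins 8, 18 and 19, and an outer layer of basal or myoepithelial cells, marked by p63 and keratins 5 and 14. The ducts lie in a fat pad, and in a virgin gland fat cells supply much of the RNA.

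All values are log2 values after RMA, a method that corrects the background, gives all arrays 1 common distribution and merges the probes of a probe set. A difference of 1 is therefore a doubling, and the number of arrays limits the precision. Differences are HD minus LD, with a standard error (SE) and an adjusted p from limma over all probe sets, and genes were called at an adjusted p under 0.05. A gene said to rise or fall was higher or lower in HD than in LD, whatever its level in sham glands. In gene lists each gene was taken at its brightest probe set, the one with the highest mean over the 8 arrays. Every list count below is to be read beside the shares over all genes taken in this way, 3.68% called higher and 6.07% called lower. Counts near these shares say little about a list. Of 11807 genes, 1339 were called (11.3%), 511 higher (4.33%) and 829 lower (7.02%) in HD, and 1 gene had probe sets in both directions. For high dose against sham, the study's limits were a log2 change of more than 0.58 in either direction and an unadjusted p under 0.01. Between HD and LD these limits were passed by 690 genes (5.84%), 187 higher (1.58%) and 503 lower (4.26%). The study gave no limits for HD against LD, so its own counts against sham are not comparable. At the brightest probe set, 48 called genes were at least 2-fold higher in HD and 152 at least 2-fold lower. The count fell to 769 genes without HD replicate 3, and it was 602, 638 and 685 without LD replicates 1, 2 and 4, each time with fewer arrays. The median of all genes was 0.02, and 0.12 once each array was centred on its own median. Centred values gave 1111 genes higher and 553 lower, so the split by direction depends on the scaling.

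The arrays were much alike, with correlations from 0.980 to 0.984 between HD and LD arrays, from 0.981 to 0.991 among HD arrays and from 0.991 to 0.994 among LD arrays. HD replicate 1 stood apart by skeletal muscle transcripts, with the mean of 27 muscle markers 5.55 above the median of the BALB/c MG arrays, and LD replicate 1 by epidermal transcripts, with 27 markers at 1.51. Muscle markers were also raised in LD replicates 2 to 4 (1.38, 0.74 and 0.91), against −0.13, −0.10 and −0.0002 in HD replicates 2 to 4. Without HD replicate 1 and LD replicate 1, 812 genes were called, 333 higher and 479 lower. That fit still held the LD arrays with muscle transcripts, so it is not free of them. HD arrays sat in plate columns 6 to 8 and LD arrays in columns 9 to 12, so dose cannot be told apart from plate column, and row F alone held both groups (HD replicates 1 and 2, LD replicate 4). With column as a covariate 10 genes were called, and with row 27. Differences within row F are given below for some lists and genes, as values without a test.

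The p53 targets rose with the higher dose. Of 27 measured genes of arrest and feedback, 15 rose in HD and 1 fell, against 3.68% of all genes called higher and 6.07% called lower at their brightest probe sets, and the median of the list was 1.02, against 0.02 over all genes. Cdkn1a, the inhibitor of cyclin-dependent kinases through which p53 halts the cycle, read 9.51, 9.55, 8.96 and 9.35 in HD arrays and 6.29, 6.19, 6.39 and 6.02 in LD arrays, with no overlap. It was higher by 3.12 (SE 0.14, adjusted p = 1.6e-05), an 8.67-fold difference and the largest increase among called genes without overlap, muscle and epidermis markers left out. Its brighter probe set had 3.05. At the first probe set the sham arrays read 5.31, 6.74 and 6.30, so LD lay within the spread of the sham glands. At the brighter one LD replicate 3 (7.88) lay above the sham arrays (6.33, 7.75 and 7.55), and the other LD arrays lay within their spread.

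Aen, a nuclease gene induced by p53, read 8.74, 8.80, 8.79 and 8.83 in HD arrays and 7.04, 7.13, 7.02 and 6.82 in LD arrays, a rise of 1.78 (SE 0.08, adjusted p = 1.6e-05). Mdm2, the ubiquitin ligase that marks p53 for destruction, read 9.48, 9.47, 9.64 and 9.47 in HD and 8.25, 8.25, 8.56 and 8.20 in LD, a rise of 1.20 (SE 0.10). HD replicate 3 and LD replicate 3 each stood above the other arrays of their group for this gene. Trp53inp1, which encodes a p53-inducible nuclear protein, rose by 1.44 (SE 0.09) and the cyclin G1 gene Ccng1 by 1.15 (SE 0.10). Dcxr, a carbonyl reductase gene, had 9.29, 9.52, 9.28 and 9.37 in HD and 8.11, 8.16, 7.95 and 8.14 in LD, a rise of 1.27 (SE 0.09, adjusted p = 1.86e-04).

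Slc19a2 stood outside the list but moved like its members. This transporter gene for thiamine read 8.64, 8.37, 8.54 and 8.52 in HD arrays and 6.83, 6.72, 6.65 and 6.58 in LD arrays, higher by 1.82 (SE 0.09, adjusted p = 1.6e-05). Sham arrays read 6.61, 6.45 and 5.96. The further members that rose were Gtse1 (1.42), Psrc1 (1.40), Phlda3 (1.17), the sestrin gene Sesn2 (1.17), the translesion polymerase gene Polk (1.11), the epoxide hydrolase gene Ephx1 (1.04), Zmat3 (1.02), Ei24 (0.59) and Btg2 (0.39). Plk2, a polo-like kinase gene, fell by 0.64. The repair gene Xpc (0.09) and the growth arrest gene Gadd45a (−0.37) did not pass. Nor did the repair gene Ddb2 at its brightest probe set (−0.27), while its other probe set was called lower (−0.54, adjusted p = 0.0296). The list median was 0.65 without LD replicate 3 and 0.66 without HD replicate 1 and LD replicate 1, where the list had 1.02 over all arrays. Within row F the median was 0.66.

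**Figure D1:**
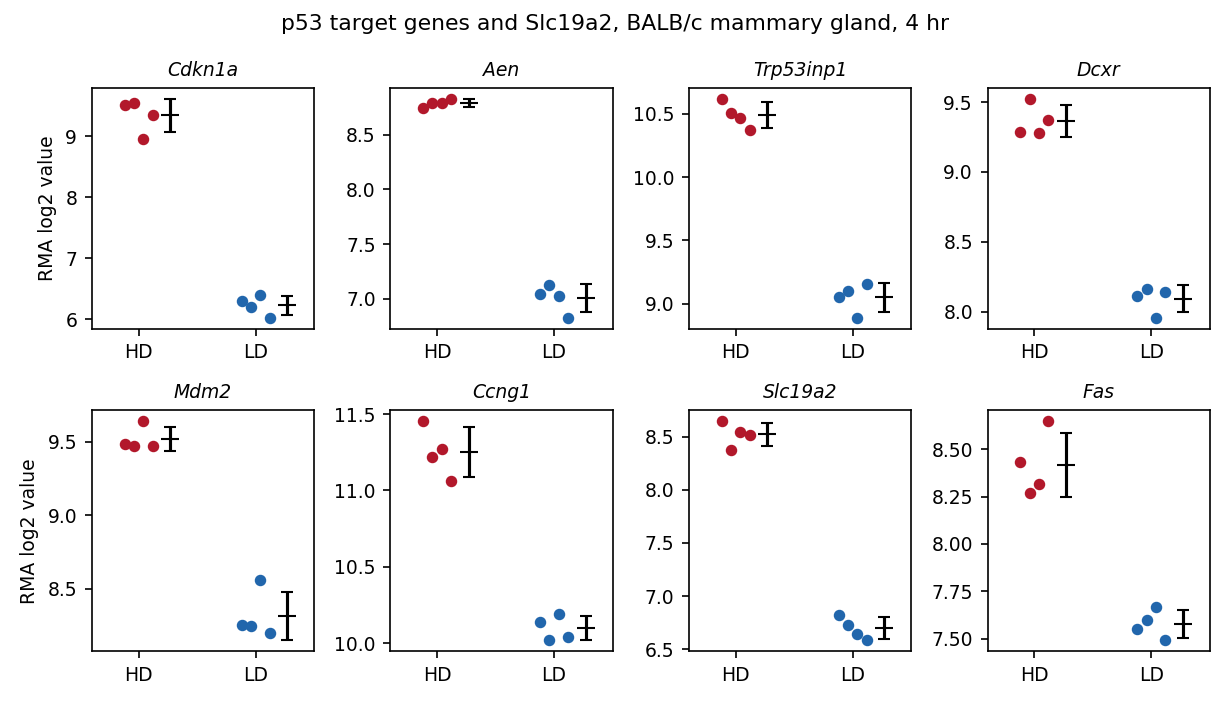
Log2 values of 7 p53 target genes and Slc19a2 in each BALB/c array at 4 hr, HD (red) and LD (blue), with 1 point per array and the mean ± SD of 4 arrays beside the points. In each panel the 4 HD points lie above the 4 LD points, with the widest gap for Cdkn1a.

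Of 17 measured genes of p53-linked cell death, 5 rose and none fell, with a list median of 0.08. Fas, a death receptor gene, read 8.43, 8.27, 8.32 and 8.65 in HD and 7.55, 7.60, 7.66 and 7.49 in LD, higher by 0.84 (SE 0.10, adjusted p = 0.00173). Apaf1, the scaffold of the apoptosome, rose by 0.64, the Bcl-2 family killer gene Bbc3 by 0.55, the TRAIL receptor gene Tnfrsf10b by 0.60 and Siva1 by 0.47. The list had 3 calls without HD replicate 3, LD replicate 1 or LD replicate 4. The call of Tnfrsf10b was lost without LD replicate 1 (adjusted p = 0.0509) and without LD replicate 4 (0.0584). Pmaip1, which encodes Noxa, had a difference of 0.24, Bcl2 of 0.01 and Mcl1 of −0.13, none past the threshold.

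Genes of DNA repair had a median of 0.01, near that of all genes. Of 44 measured, 2 rose, Mutyh (0.48) and Ercc5 (0.46), and 2 fell, the ligase gene Lig3 (−0.42) and the end-joining gene Xrcc6 (−0.38), beside the 3.68% of all genes called higher and the 6.07% called lower. The 44 replication genes had a median of −0.08 with 1 higher (Cdc45) and 1 lower (Dnmt1). The 51 mitosis genes had a median of −0.23, and the checkpoint kinase gene Bub1 alone was called (0.51). The proliferation marker Mki67 averaged 5.90 in HD and 6.94 in LD, a difference of −1.03 with an SE of 0.55 (adjusted p = 0.276).

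Most genes of the luminal epithelium fell in HD. Of 43 measured, 34 fell and none rose, and in 33 the HD and LD arrays did not overlap, as was the case with HD lower for 10.2% of all genes. The list median was −1.45. Krt8, a keratin of luminal cells, read 9.87, 9.10, 9.35 and 8.35 in HD arrays and 11.67, 11.74, 11.98 and 11.26 in LD arrays. The difference was −2.49 (SE 0.28, adjusted p = 0.0016). Krt19, a further luminal keratin, read 10.13, 9.21, 9.51 and 8.39 in HD and 11.87, 11.92, 12.26 and 11.52 in LD, and fell by 2.58 (SE 0.31). In both genes HD replicate 1 was the highest HD array and HD replicate 4 the lowest.

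The surface gene Cd24a followed them with a tighter spread. Its HD arrays read 8.92, 8.14, 8.72 and 8.02 and its LD arrays 10.98, 10.90, 11.06 and 10.74, a difference of −2.47 (SE 0.19, adjusted p = 3.21e-04), with −2.06 (adjusted p = 8.21e-04) at its brighter probe set. The sham arrays read 9.93, 10.06 and 9.87, between both irradiated groups. Prom2, a gene of membrane protrusions in epithelial cells, read 5.36, 4.78, 4.61 and 4.30 in HD and 7.64, 6.82, 7.44 and 6.73 in LD, and the water channel gene Aqp5 fell by 2.76 (SE 0.45). The junction genes Cldn7 (−2.01), Cldn3 (−1.80), Cldn8 (−1.67), Cdh1 (−1.64) and Epcam (−1.55) fell too, as did Esrp1 (−1.92), which controls epithelial splicing, and the receptor gene Kit (−1.08). Esr1, the estrogen receptor gene, had a difference of −0.17 and Foxa1, a luminal transcription factor gene, of −1.23, and neither passed.

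The mean of 9 luminal markers, relative to the median of the BALB/c MG arrays, was −0.91, −1.69, −1.23 and −2.38 in HD arrays and 0.41, 0.26, 0.41 and 0.37 in LD arrays. Sham arrays lay at 0.24, −0.36 and 0.06. The 7 myoepithelial markers ran alongside, at −0.17, −0.53, −0.39 and −0.99 in HD and 0.26, 0.07, 0.08 and 0.30 in LD. White adipocyte markers lay between 0.07 and 0.28 in HD and between −0.04 and 0.01 in LD. The part of tissue make-up in the epithelial differences was not tested. Within plate row F the median of the luminal list was −1.28.

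**Figure D2:**
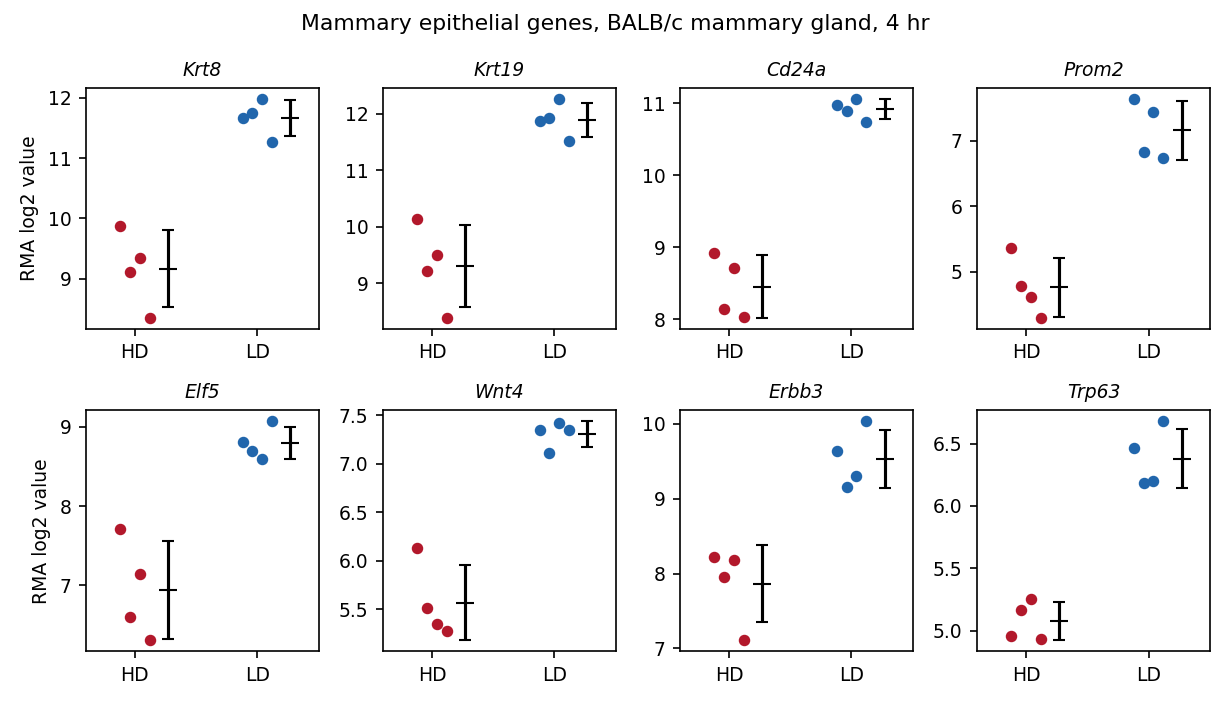
Log2 values of 8 epithelial genes in each BALB/c array at 4 hr, HD (red) and LD (blue), with 1 point per array and the mean ± SD of 4 arrays. HD points lie below LD points in each panel, and HD replicate 4 is the lowest HD point for Krt8 (8.35) and Krt19 (8.39).

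Of 30 genes of the hormone response, 10 fell and none rose, with a median of −0.15. Wnt4, the signal through which progesterone drives ductal side branching, read 6.13, 5.51, 5.35 and 5.27 in HD and 7.34, 7.11, 7.42 and 7.35 in LD, a difference of −1.74 (SE 0.17, adjusted p = 0.00121), while sham arrays read 6.71, 6.00 and 6.60. Id4, a mammary stem cell regulator, fell by 1.22, as did the stanniocalcin gene Stc2 (−1.56) and the cyclin D1 gene Ccnd1 (−0.75). The luminal transcription factor gene Gata3 fell by 1.51 (SE 0.38), but its call was lost without LD replicate 1 (adjusted p = 0.0929) and without each of 4 other arrays. The prolactin signal transducer gene Stat5a fell by 0.59 (0.96 at a dimmer probe set) and Msx2, a homeobox gene of the developing gland, fell by 1.26. Runx1, a transcription factor gene, fell by 1.44 (SE 0.15), with 4 of its 5 probe sets in that direction. For Stat5a, Msx2 and Runx1 the sham means lay nearer to HD than to LD. Sham was 8.75 for Stat5a at its brightest probe set (HD 8.80, LD 9.39). It was 5.65 for Msx2 (HD 5.28, LD 6.54) and 5.77 for Runx1 (HD 5.26, LD 6.69). The 10 calls numbered 3 without LD replicate 2, 4 without LD replicate 1, 5 without LD replicate 3 or 4 and 6 without HD replicate 2 or 4. Ccnd1 lost its call without LD replicate 2 or 4 (adjusted p = 0.0534 and 0.0513).

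Of 28 genes in the list of milk and alveolar genes, 8 fell and 2 rose. Elf5, the transcription factor gene of the alveolar lineage, read 7.71, 6.60, 7.15 and 6.31 in HD and 8.80, 8.70, 8.60 and 9.07 in LD, a difference of −1.85 (SE 0.26). Muc15, a membrane mucin gene, fell by 2.04 (SE 0.23), Wfdc18, which encodes a secreted whey-type protein, fell by 1.72 and Slc12a2, an ion cotransporter gene, fell by 1.45. Slc5a5, the iodide pump, read 5.31, 4.44, 5.0 and 4.51 in HD and 7.25, 6.14, 7.25 and 6.22 in LD, and its sham arrays (5.06, 5.54 and 4.96) lay at the HD level. The members that rose, Plin2 (0.58) and Thrsp (0.31), act in lipid storage and lipid synthesis. The milk protein genes Wap (0.17), Csn1s1 (0.15) and Csn3 (−0.66) did not pass.

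Of 27 basal and myoepithelial genes, 8 fell and none rose, with a median of −0.40. Trp63, which encodes p63, the master factor of basal cells, read 4.96, 5.16, 5.25 and 4.94 in HD and 6.46, 6.18, 6.20 and 6.68 in LD, a difference of −1.30 (SE 0.13, adjusted p = 0.00116). Igfbp2 (−1.24), Krt5 (−1.21), the laminin gene Lamb3 (−0.99), Sox9 (−0.96), Col17a1 (−0.83), Sfn (−0.70) and Egfr (−0.62) fell too, and the brightest probe set of Krt14 had −0.89 (adjusted p = 0.095). This count depended on single arrays: without LD replicate 1, the array with epidermal transcripts, 1 gene was called, and without LD replicate 4 there were 2, without LD replicate 2 there were 3, without HD replicate 2 or 4 there were 4, and without HD replicate 3 there were 5. Sfn lost its call without LD replicate 1 (adjusted p = 0.051) and Sox9 without LD replicate 1 or 4 (0.062 and 0.0594).

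Of 10 genes of the EGF family, 4 fell. The receptor genes Erbb3 and Erbb2, which pair with each other, had differences of −1.67 (SE 0.26) and −1.11 (SE 0.15), and the ligand gene Tgfa fell by 0.53. Egfr fell by 0.62 at its brightest probe set, but only 2 of its 5 probe sets ran in that direction. Calls in this list numbered 2 without HD replicate 4, LD replicate 1 or LD replicate 2. Egfr kept its call only without HD replicate 1 or 2 or LD replicate 3 (adjusted p up to 0.0753 otherwise), and Tgfa only without HD replicate 3 or LD replicate 4 (up to 0.0905 otherwise). Among 33 genes of Wnt, notch and hedgehog signaling, 5 fell, including the frizzled receptor gene Fzd2 (−0.65) and the ligand genes Wnt5b (−0.70) and Wnt5a (−1.01), and 2 rose, the receptor genes Fzd4 (0.44) and Notch1 (0.34). The number that fell was 2 without LD replicate 1 and 3 without LD replicate 2 or 4. Wnt5b lost its call without LD replicate 1 or 4 (adjusted p = 0.0526 and 0.0504), and Fzd4 kept its own only without HD replicate 1 or LD replicate 3 (up to 0.0611 otherwise).

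The MHC class II genes, which carry peptide antigens on the surface of dendritic cells, B cells and activated macrophages, were lower in HD. Of 12 measured, 7 fell and none rose, with a median of −1.04 over the list and −0.83 within row F. H2-Aa, an alpha chain gene, read 9.61, 9.15, 9.72 and 9.09 in HD arrays and 11.29, 11.12, 10.92 and 11.02 in LD arrays, and sham arrays, at 11.27, 11.10 and 11.25, lay with LD. Its difference was −1.70 (SE 0.15, adjusted p = 7.98e-04). H2-Ab1, the matching beta chain gene, read 8.20, 7.32, 8.13 and 7.74 in HD and 9.71, 9.48, 9.36 and 9.54 in LD, and Cd74, the invariant chain that guides class II molecules, fell by 1.27 (SE 0.12). H2-Ea, the alpha chain gene of the second class II molecule, fell by 1.98 (SE 0.23), with 2 of its 3 probe sets in that direction, and its partner H2-Eb1 fell by 1.73.

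Within the list the genes that load peptides divided. H2-DMb2 fell by 1.23 and H2-DMa fell by 0.85, whereas H2-DMb1 had −0.56 (adjusted p = 0.123). H2-Oa, H2-Ob and Ciita, the master regulator of the group, averaged between 4.16 and 4.26 in HD and between 4.15 and 4.33 in LD, near the lower quartile of the arrays, which was 4.46 to 4.55. The lysosomal protease gene Ctss was bright (10.21 in HD and 10.01 in LD) and did not pass. The list had 7 calls in each of the 8 fits that left out 1 array.

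Promoter sequence was examined for the class II genes because they moved together. Of the 12 genes, 8 had an entry among RefSeq promoters of GRCm38.p6, and each was searched in its 250 bases before the start for CTGATTGG and for CCAAT on both strands. CTGATTGG contains ATTGG, the reverse complement of CCAAT, and it is the form of the Y box that class II promoters are known for. Of all 32851 promoter windows of this length, 3.83% held CTGATTGG and 33.8% held CCAAT. CTGATTGG was in 3 of the 8 class II windows, those of H2-Aa and H2-Eb1, which fell, and of H2-Oa, which lay near background in both groups, and CCAAT was in 7 of the 8. The last 120 bases before the start of these 3 genes, all on chromosome 17, are shown 5′ to 3′ on the strand of the gene, with the match in capitals at position −51, −62 and −46 from the start.
H2-Aa, chr17:34287824-34287943, minus strand: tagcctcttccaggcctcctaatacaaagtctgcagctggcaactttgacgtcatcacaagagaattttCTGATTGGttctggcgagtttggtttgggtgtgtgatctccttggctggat
H2-Eb1, chr17:34305747-34305866, plus strand: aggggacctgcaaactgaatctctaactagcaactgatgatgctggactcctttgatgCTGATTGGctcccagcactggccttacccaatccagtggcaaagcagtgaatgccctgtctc
H2-Oa, chr17:34092259-34092378, plus strand: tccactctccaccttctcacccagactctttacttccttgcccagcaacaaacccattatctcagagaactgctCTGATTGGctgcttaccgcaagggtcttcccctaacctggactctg
A match describes these letters only, and says nothing of binding.

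Lists of B, T and NK cell genes had few calls. No list of dendritic cell genes was written, so a change in these carriers of class II molecules was not tested. Of 19 B cell genes 2 fell, Cd74 itself and Ly6d (−1.99), which epithelial cells express as well. The mean log2 value of 8 lymph node B cell markers ran between 4.40 and 4.56 in HD and between 4.36 and 4.48 in LD, near the lower quartile in both groups. Among 21 T cell genes Cd3e (0.42) and Cd5 (0.60) rose and Thy1 (−1.06), which stromal cells share, fell. None of 17 genes of NK and cytotoxic cells was called, by limma, with Gzma alone at an unadjusted p under 0.05 and differences between −0.40 and 0.19. MHC class I and peptide loading genes had 2 of 12 lower, H2-T23 (−0.43) and Psmb8 (−0.41).

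Of 38 macrophage genes, 5 fell and none rose, beside 6.07% and 3.68% of all genes. The list as a whole did not fall: its median was 0.09, with 21 genes positive and 17 negative, and 0.64 within row F. Cd14, a coreceptor for bacterial lipopolysaccharide, read 8.77, 8.45, 8.19 and 8.29 in HD and 9.31, 9.13, 9.14 and 9.50 in LD, and fell by 0.85 (SE 0.14, adjusted p = 0.00719). The transcription factor gene Irf8 (−0.83), the chemokine receptor genes Ccr2 (−1.12) and Cx3cr1 (−0.34) and the lectin gene Clec7a (−0.48) fell too. Clec7a kept its call only without HD replicate 4 or LD replicate 3 (adjusted p up to 0.0802 otherwise). Irf8, which dendritic cells need, read 5.23, 5.54, 4.97 and 5.41 in HD and 6.30, 6.39, 5.82 and 5.95 in LD, with sham arrays at 6.55, 7.07 and 6.83. Gpnmb and Trem2, genes of lipid-laden macrophages that the study singled out, had differences of 1.51 (SE 0.48, adjusted p = 0.0813) and 0.53 (SE 0.33), neither past the threshold. Their sham means, 8.05 and 6.67, lay above those of HD (7.55 and 6.08) and of LD (6.04 and 5.55). HD replicate 3 was the lowest HD array for both genes and lay within the LD range or below it (6.37 and 4.98), and the macrophage marker mean of that array was −0.97. Without it 5 macrophage genes were called higher, and Gpnmb and Trem2 passed (adjusted p = 0.0392 and 0.0362). Adgre1, which encodes F4/80, read 7.21, 7.96, 6.46 and 7.55 in HD and 7.20, 7.33, 6.88 and 6.87 in LD, with overlap. Its sham arrays read 7.53, 8.63 and 7.80. Of 19 neutrophil and mast cell genes, 3 rose and 1 fell, with a median of 0.10. The alarmin genes S100a8 and S100a9 rose by 1.39 (SE 0.21) and 1.26 (SE 0.20), and Cxcr2 by 0.47, while Kit, which luminal cells share, fell by 1.08.

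**Figure D3:**
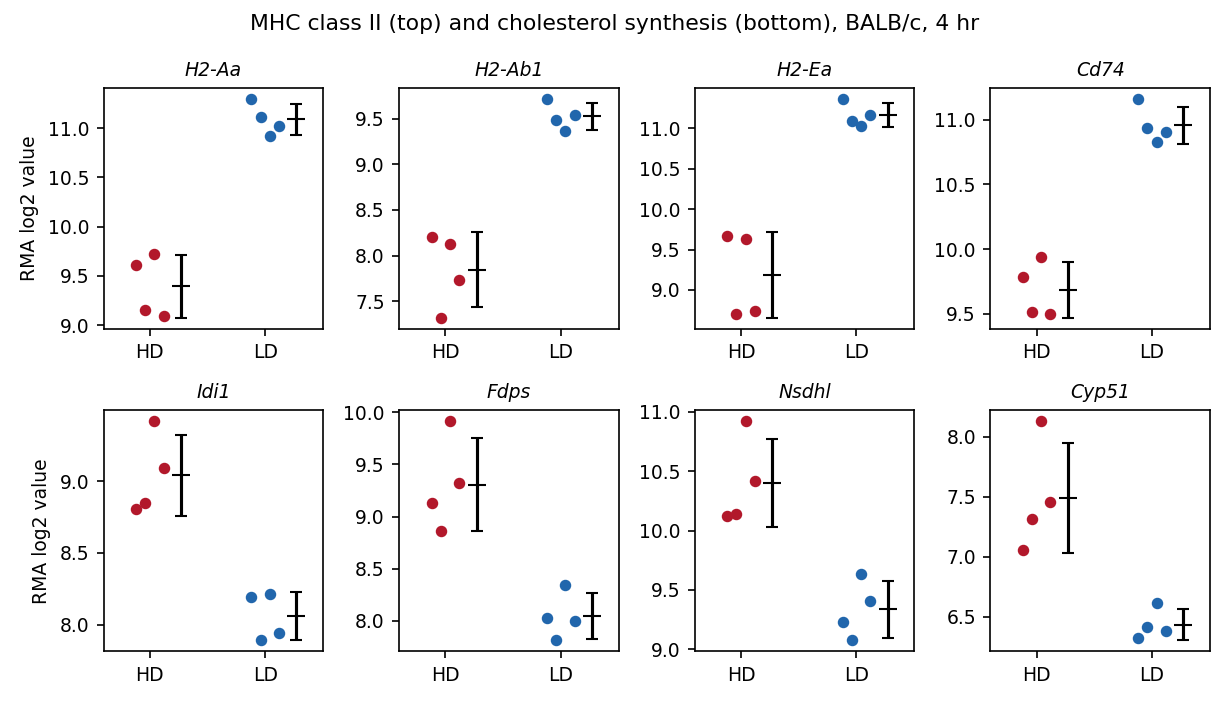
Log2 values of 4 MHC class II genes (upper row) and 4 cholesterol synthesis genes (lower row) in each BALB/c array at 4 hr, HD (red) and LD (blue), with 1 point per array and the mean ± SD of 4 arrays. HD lies below LD for the class II genes and above it for the cholesterol genes, where HD replicate 3 is the highest point in each panel (9.42 for Idi1).

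Cholesterol synthesis genes were higher in HD. Of 15 measured, 9 rose and none fell, with a median of 0.52, and 0.63 within row F. Idi1, the isoprenoid isomerase, read 8.80, 8.85, 9.42 and 9.09 in HD and 8.19, 7.89, 8.21 and 7.94 in LD, higher by 0.98 (SE 0.14, adjusted p = 0.00499). Fdps, the synthase of farnesyl pyrophosphate, read 9.13, 8.86, 9.91 and 9.32 in HD and 8.02, 7.81, 8.35 and 8.00 in LD, higher by 1.26 (SE 0.21). The later enzymes Lss (1.21), Nsdhl (1.06), Cyp51 (1.06), Dhcr7 (0.96), Sc5d (0.76), Hsd17b7 (0.49) and the early kinase Mvk (0.52) rose as well. Sqle (0.31), Fdft1 (0.31), Mvd (0.37), Msmo1 (−0.10) and the master regulator Srebf2 (−0.30) did not pass. The 3 sham arrays spread over more than the difference between the group means: Fdps read 8.39, 7.59 and 9.77 and Idi1 8.35, 7.58 and 8.87, so that sham replicate 2 lay below all LD arrays and sham replicate 3 lay near the HD arrays.

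Of the 15 genes, 11 had a RefSeq promoter entry, 8 of them called higher. CCAAT or its reverse complement was in the 250 bases before at least 1 start of all 11, the 3 genes not called included, where 33.8% of all windows held it. CCAAT is the box bound by the factor NF-Y, which is known to act with the sterol regulator SREBP. CTGATTGG was in 4 of the 11, those of Mvk, Idi1, Lss and Sc5d, so these letters were found in promoters of genes that rose as well as of class II genes that fell. The last 120 bases before the start of 3 genes that rose are shown in the same way, here with only CCAAT or ATTGG in capitals, so that in Idi1 and Lss the letters of CTGATTGG are partly in lower case.
Idi1, chr13:8885486-8885605, plus strand: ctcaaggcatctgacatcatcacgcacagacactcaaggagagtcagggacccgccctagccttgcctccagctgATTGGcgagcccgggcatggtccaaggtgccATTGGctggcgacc
Lss, chr10:76531485-76531604, plus strand: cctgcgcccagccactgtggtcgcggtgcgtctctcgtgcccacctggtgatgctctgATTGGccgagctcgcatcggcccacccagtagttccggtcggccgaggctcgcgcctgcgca
Cyp51, chr5:4104698-4104817, minus strand: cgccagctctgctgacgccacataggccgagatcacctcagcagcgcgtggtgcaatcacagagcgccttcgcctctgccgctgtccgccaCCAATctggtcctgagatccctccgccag
The letters begin at position −45 in Idi1, −62 in Lss and −29 in Cyp51, and no factor was measured on them.

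Of 23 white adipocyte genes 6 rose, none fell and 17 were not called, with a median of 0.20. Acly, which makes the acetyl-CoA used for lipids, read 13.00, 13.31, 13.58 and 13.32 in HD and 12.22, 11.70, 12.60 and 12.57 in LD, higher by 1.03 (SE 0.20). Gpd1 rose by 0.73, the glucose transporter gene Slc2a4 by 0.62 and Dgat2, the last enzyme of triglyceride synthesis, by 0.58. With all 20 BALB/c MG arrays in the fit 2 of the 23 were called, and with all 43 MG arrays none was. Among the 12 largest increases, by the rule used for Cdkn1a, were Acss2 (1.64), which also makes acetyl-CoA, the fatty acid elongase gene Elovl6 (1.64, and 1.29 at its brightest probe set) and the fructose transporter gene Slc2a5 (1.79). Elovl6 kept its call only without HD replicate 1 or LD replicate 3 (adjusted p up to 0.0753 otherwise). Acss2 read 10.87, 11.33, 11.97 and 11.10 in HD and 9.60, 9.05, 9.93 and 10.14 in LD. Its sham arrays read 10.63, 9.23 and 12.16, a wider range than in the HD or the LD arrays. The fat cell genes Adipoq (−0.02), Cd36 (0.01) and Plin4 (0.04) hardly differed, and none of the 3 passed.

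The remaining genes with the largest increases were Cxcl13, a B cell chemokine gene (1.87), Ncan (1.78), the mitochondrial enzyme gene Mtarc1 (1.72), Glipr1 (1.68), the antitrypsin gene Serpina1b (1.53) and Parm1 (1.47). Cxcl13 read 7.43, 7.49, 6.21 and 7.11 in HD and 5.57, 5.65, 4.58 and 4.98 in LD. Its sham arrays read 6.12, 7.54 and 5.60 and overlapped both groups. Ncan ran from 5.13 to 7.67 in HD, against 4.63 to 4.89 in LD, and lost its call when any single array except HD replicate 1 was left out (adjusted p from 0.0532 to 0.0804).

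Among the same genes the largest decrease was that of Ido1, which encodes an enzyme that breaks down tryptophan and restrains T cells. Ido1 read 5.68, 4.46, 4.71 and 5.04 in HD and 8.73, 8.69, 10.91 and 5.88 in LD, a difference of −3.58 (SE 0.84, adjusted p = 0.0293). The sham arrays, at 5.04, 5.73 and 5.41, lay with HD, and LD replicate 4 lay close to them. Its call was lost without HD replicate 2, 3 or 4 (adjusted p = 0.0636, 0.0727 and 0.0599) and without LD replicate 1 or 2 (0.077 and 0.0777), and within row F, where LD replicate 4 is the one LD array, the difference was −0.81. In C57BL/6 the difference of Ido1 was 0.32, and the test between strains was not passed (adjusted p = 0.63). Further large decreases were those of the chemokine gene Cxcl15 (−3.21), the mucosal defense gene Dmbt1 (−2.58), the chitinase-like gene Chil1 (−2.22), Plet1 (−2.11) and the arginase gene Arg2 (−2.09). The sham mean of Arg2 was 6.62, nearer to HD (6.10) than to LD (8.20). Cxcl15 read 6.51, 4.81, 6.38 and 4.90 in HD and 9.31, 8.94, 10.17 and 7.0 in LD, and lost its call without LD replicate 1 (adjusted p = 0.0533). Plet1, a surface marker of luminal cells, read 7.22, 6.76, 7.12 and 6.65 in HD and 9.12, 8.87, 8.95 and 9.24 in LD at 1 probe set (adjusted p = 1.81e-04), while a second, dim probe set had 0.38. Dmbt1 lost its call without any array except LD replicate 4.

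Extracellular matrix genes were lower in part. Of 51 measured, 9 fell and none rose, with a median of −0.19. Fn1, which encodes fibronectin, read 11.48, 11.37, 10.64 and 11.07 in HD and 12.02, 12.38, 11.82 and 12.30 in LD, and fell by 0.99 (SE 0.19, adjusted p = 0.0147). The collagen gene Col16a1 fell by 1.29, and the microfibril gene Mfap2 (−1.15) and the membrane-bound collagenase gene Mmp14 (−0.86) fell too. Sham arrays of Fn1 read 12.23, 12.25 and 12.04. Fibroblast markers lay at −0.05, −0.08, −0.48 and −0.24 in HD and 0.06, 0.07, −0.13 and 0.02 in LD, and their part in these differences was not tested. The count was 5 without HD replicate 3 or LD replicate 1, 3 without LD replicate 2 and 4 without LD replicate 4. Mfap2 lost its call without LD replicate 2 or 4 (adjusted p = 0.0548 and 0.055).

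Of 26 genes of TGF-beta signaling, 6 fell and none rose. The ligand gene Tgfb3 read 7.79, 7.62, 7.65 and 7.17 in HD and 8.89, 8.70, 8.98 and 8.67 in LD, and fell by 1.25 (SE 0.14, adjusted p = 0.00152). Skil, an inhibitor that the pathway induces, fell by 0.74, as did Id2 (−0.92) and the latent binding protein gene Ltbp1 (−0.72). The count was 3 without LD replicate 1 or 2 and 2 without LD replicate 4. Id2 lost its call without LD replicate 2 or 4 (adjusted p = 0.0545 and 0.0512) and Ltbp1 without LD replicate 1 or 4 (0.0561 and 0.0538). The median of the list was −0.23.

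Of 30 immediate early genes, 4 fell and 2 rose. Myc read 7.11, 6.68, 6.88 and 6.52 in HD and 7.95, 7.68, 7.62 and 7.89 in LD, and fell by 0.99 (SE 0.14, adjusted p = 0.00371), and Egr2 (−1.56), Ier3 (−0.74) and Fos (−0.72) fell too. The sham arrays of Egr2 read 8.91, 8.17 and 6.40. Maff, a small bZIP factor gene, rose by 1.03, though the sham arrays (6.37, 5.82 and 8.19) spanned both groups. The 2 calls of genes that rose were Maff and Btg2, and 1 of them was left without HD replicate 2 or without LD replicate 1, 2 or 3.

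Glycolysis and hypoxia genes moved both ways, with 6 of 30 higher and 5 lower. The muscle-type aldolase gene Aldoa rose by 0.53 (SE 0.08), and Ldha (0.43), Pkm (0.66), Hk2 (0.60) and Gapdh (0.37) rose too. The brain-type aldolase gene Aldoc fell by 1.55 (SE 0.19), as did the glucose transporter gene Slc2a1 (−0.55) and Hk1 (−0.50). Hif1a, the oxygen-sensing factor, read 9.73, 9.79, 9.89 and 9.71 in HD and 10.35, 10.11, 10.97 and 9.99 in LD, a difference of −0.57 (SE 0.19, adjusted p = 0.0836) that did not pass although the groups did not overlap. Rab20, a small GTPase gene induced by hypoxia, fell by 0.55 (SE 0.15, adjusted p = 0.0493) and lost its call without 6 of the 8 arrays. Sham means lay near HD for Slc2a1 (sham 6.72, HD 6.75, LD 7.29) and Rab20 (sham 4.34, HD 4.49, LD 5.03). Fxyd2, a subunit of the sodium pump, had −1.02 at its brightest probe set and −1.24 at a dimmer one (adjusted p = 0.0529), and the dimmer one passed without HD replicate 1 (adjusted p = 0.0219) or LD replicate 4 (0.0266). The 6 rises numbered 3 without HD replicate 3 or without LD replicate 1, 2 or 4.

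Stress, redox, clock and interferon genes gave few calls, beside the 3.68% of all genes called higher and the 6.07% called lower. The heat shock gene Hspa1b fell by 1.33, and the amino acid stress genes Atf5 (0.76) and Chac1 (0.74) rose among 26. In the antioxidant list the secreted peroxidase gene Gpx3 fell by 1.27 and Sod2, Sod3 and Gstm1 rose by 0.45, 0.36 and 0.36. Of 19 clock genes, Rora rose (0.48) and Csnk1e fell (−0.34). Of 29 interferon response genes, Gbp2 rose (0.50) and Ido1 and Psmb8 fell. Brown adipocyte genes had 3 of 13 higher, including the muscle-shared genes Cpt1b (1.04) and Cox7a1 (0.99), and HD replicate 1 held muscle transcripts as given above.

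**Figure D4:**
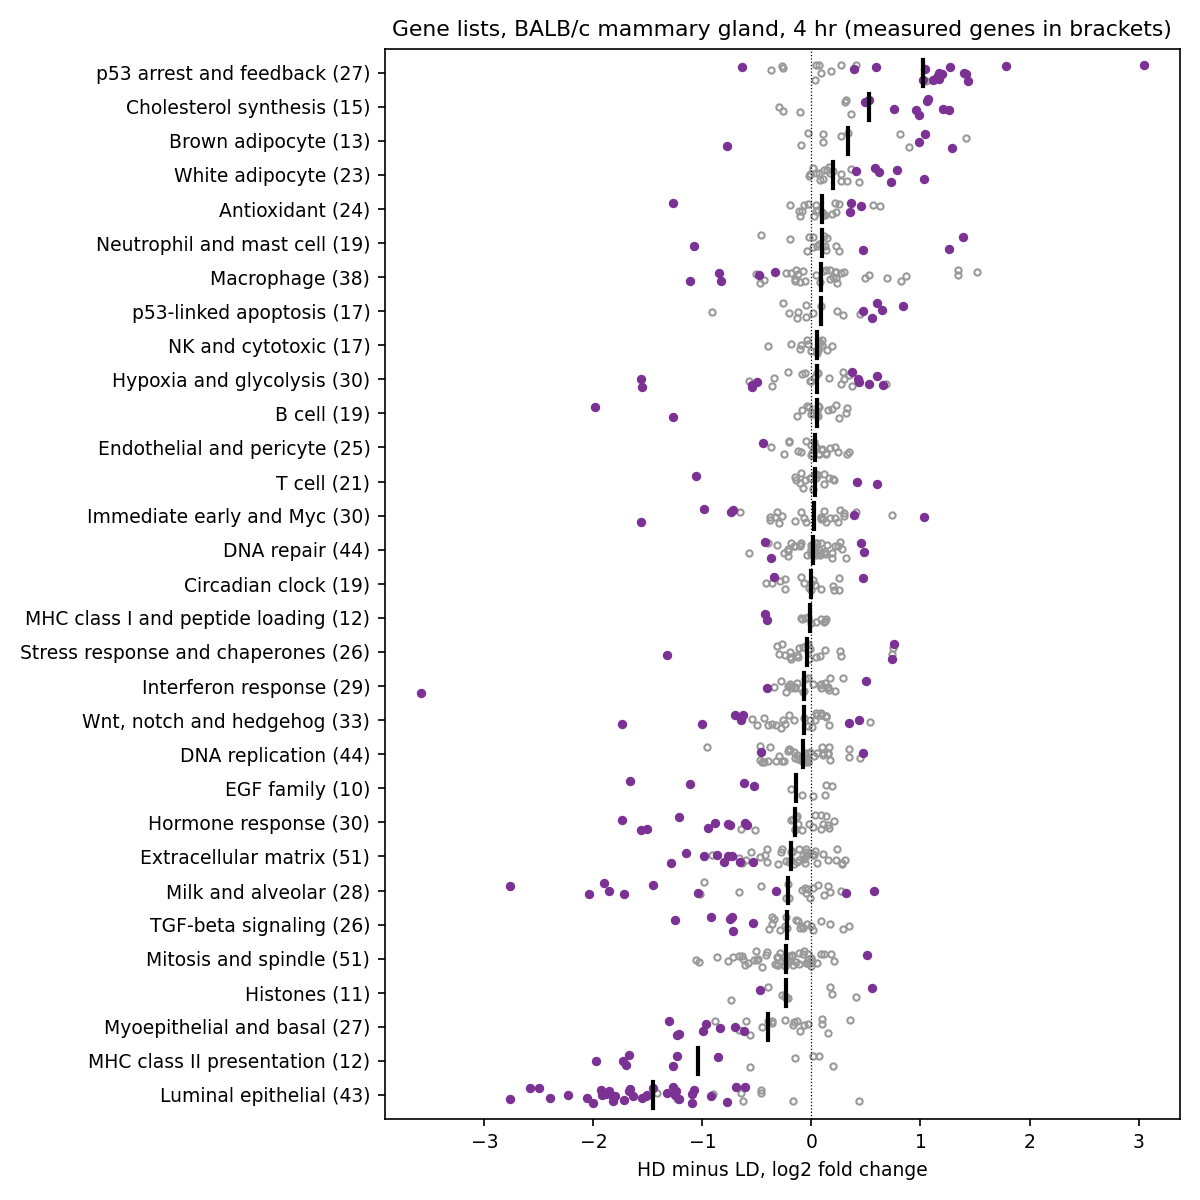
HD minus LD log2 fold change of each measured gene of 31 lists at its brightest probe set, with 1 point per gene, filled purple where the adjusted p is under 0.05, and a black bar at the list median. Lists are ordered by median, from p53 arrest and feedback (1.02) at the top to luminal epithelial genes (−1.45) at the bottom.

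The same dose contrast was taken in C57BL/6 mice, whose 8 arrays at 4 hr share no sample with those of BALB/c. They sat in the same wells of another plate, so that strain and plate cannot be told apart, and a shared effect of well position was not tested. In C57BL/6, 44 genes were called (0.373%), 25 higher (0.212%) and 19 lower (0.161%). Of the 435 genes called higher in BALB/c at their brightest probe sets, 400 (92.0%) had the same sign in C57BL/6, where 49.8% of all genes were positive, and their median was 0.23 in C57BL/6, against 0.49 in BALB/c. Of the 717 called lower, 699 (97.5%) had the same sign, where 50.2% of all genes were negative, and their median was −0.40 in C57BL/6, against −0.62 in BALB/c. In the same direction, 20 of the 435 and 12 of the 717 were also called in C57BL/6. The BALB/c medians are those of genes selected on the same arrays.

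Cdkn1a differed by 3.12 in BALB/c and by 2.26 in C57BL/6. For this gene C57BL/6 LD replicate 1 read 7.74, against 5.96, 6.06 and 6.21 in LD replicates 2 to 4. C57BL/6 HD arrays were uneven for the lipid gene Acly, at 13.64, 13.52, 11.74 and 12.22. The C57BL/6 contrast alone was not refitted without single arrays, so how far its counts and medians rest on such arrays was not tested. Aen differed by 1.78 in BALB/c and by 2.02 in C57BL/6, Slc19a2 by 1.82 and 1.96, Cd74 by −1.27 and −1.23, and H2-Aa by −1.70 and −1.61. In C57BL/6, 11 of the 27 p53 genes of arrest and feedback were called higher and 5 of the 12 class II genes lower. Luminal genes had a median of −1.45 in BALB/c and −0.75 in C57BL/6, with none of the 43 called in C57BL/6, and cholesterol synthesis genes had medians of 0.52 and 0.02. The test of the difference between strains was passed by 3 genes (0.0254%), 1 with the higher difference in BALB/c (0.00847%) and 2 with the lower (0.0169%), and by none of the luminal or cholesterol genes, which does not show that the strains respond alike. These 3 genes, named here after their values were seen, were H2-Ea, Atp6v0e2 and Gas5.

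H2-Ea differed by −1.98 in BALB/c and −0.03 in C57BL/6 (difference −1.94, adjusted p = 0.0131). The haplotype of C57BL/6 is known not to express this gene, and its 8 C57BL/6 arrays read between 3.92 and 4.10, so no decrease could be measured there. Atp6v0e2, a proton pump subunit gene, was higher by 0.46 in BALB/c and had −0.59 in C57BL/6 (difference 1.05, adjusted p = 0.0131). The non-coding gene Gas5 read 7.08, 6.86, 7.04 and 7.01 in HD and 8.14, 7.90, 8.03 and 7.98 in LD in BALB/c, a difference of −1.02, against −0.17 in C57BL/6 (difference −0.85, adjusted p = 0.0421). None of the 3 passed with the replicate number as a block, and 1 gene passed without BALB/c LD replicate 1, while 5 passed without BALB/c HD replicate 1.

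At 1 month the dose contrast rested on 4 HD and 2 LD arrays of BALB/c. No gene was called by limma (0.0%), while 1487 genes had an unadjusted p under 0.05 (12.6%) and 285 passed the study's thresholds (2.41%). The difference between the contrast at 4 hr and that at 1 month was called for 18 genes (0.152%), 13 with the higher difference at 4 hr (0.11%) and 5 with the lower (0.0423%). Slc19a2 differed by 1.82 at 4 hr and −0.04 at 1 month (difference 1.86, adjusted p = 8.64e-04), Aen by 1.78 and 0.10 (1.68, adjusted p = 0.00436) and Mdm2 by 1.20 and 0.21 (0.99, adjusted p = 0.0236). Cdkn1a had a difference of 1.73 at 1 month, which was not called, and its test between times did not pass (adjusted p = 0.204, and 0.0802 at its brighter probe set). Cd24a had −2.47 at 4 hr and −0.15 at 1 month (difference −2.32, adjusted p = 0.0276), but its brighter probe set had −2.06 and −0.45 and did not pass (difference −1.61, adjusted p = 0.0802), while the luminal list kept a median of −0.95. The class II median was 0.34 at 1 month, where HD replicate 1 stood apart: H2-Aa read 12.42, 11.25, 11.18 and 10.46 in HD and 11.74 and 10.66 in LD. That array was also the highest of the 1 month arrays for Irf8 (9.21) and Cxcl13 (11.42), and the B cell and T cell lists had medians of 0.57 and 0.60. The part of this array in those medians was not tested. The 18 calls depended on single arrays: 58, 5 and 59 genes were called without HD 4 hr replicates 1, 3 and 4, 3, 7, 10 and 4 without LD 4 hr replicates 1 to 4, 8 and 38 without HD 1 month replicates 3 and 4, and 6 and 1 without LD 1 month replicates 1 and 2.

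**Figure D5:**
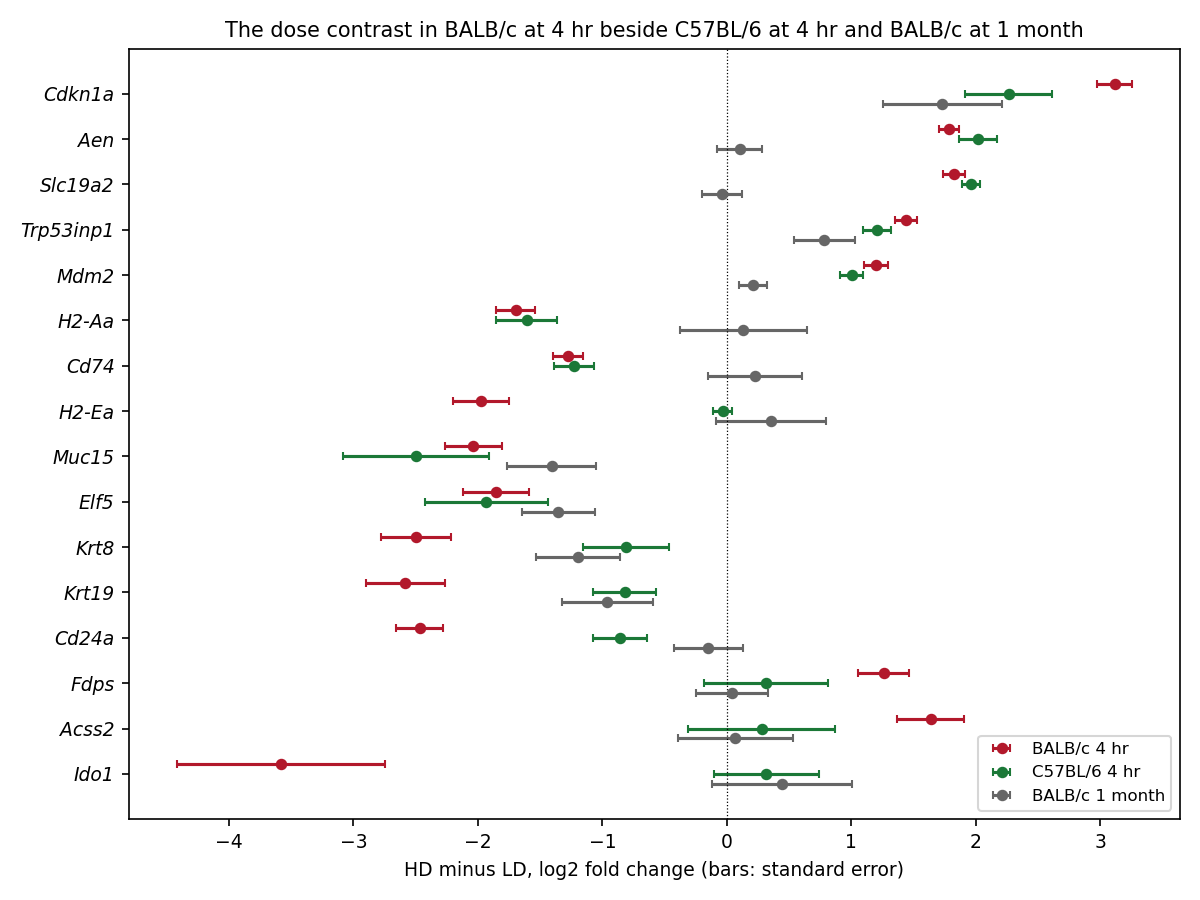
HD minus LD log2 fold change of 16 genes in BALB/c at 4 hr (red), C57BL/6 at 4 hr (green) and BALB/c at 1 month (gray), with bars of 1 standard error. Cdkn1a, Aen, Slc19a2, Trp53inp1 and Mdm2 are above 1 in both strains at 4 hr, H2-Aa and Cd74 below −1, and H2-Ea is at −1.98 in BALB/c at 4 hr and at −0.03 in C57BL/6.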

How the data were processed

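The authors deposited 1 table of log2 values for all HT_MG-430A arrays, normalized with RMA per the labels, whose settings are not given in the sources used here. Of its 22626 probe sets, 18003 have exactly 1 gene symbol (11807 genes, names from GRCm38.p6). The rest, 287 with several genes and 4336 with none, entered the fits and no gene count. Areg and Il7r were not analysed here.

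limma (3.58.1, in R 4.3.3) was fitted to the 8 arrays, with 6 residual degrees of freedom, a median SE of 0.11 and Benjamini-Hochberg adjustment across the whole table. Strain and time differences were interaction terms. The methods describe independent mice, 1 per array. Members, lists and named genes were chosen with earlier results of these data known. Named were the 12 highest and 12 lowest called genes without overlap between groups, muscle and epidermis markers left out, a fixed set, and in part of the lists the 4 genes of smallest p. Lists without this rule included those of DNA repair, replication, mitosis, B cells, T cells, neutrophils, stress, antioxidant, clock and interferon genes. Other genes mentioned were chosen after their values were seen. Code was tested on simulated data. Summaries and plots used Python 3.11 (pandas 2.3.3, matplotlib 3.10.9, numpy 2.4.6).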

Additional observations from a re-analysis of the deposited data

Results flagged for a closer look

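Among 232 checks of 1 array standing far from the other 3 of its group, over the named genes and marker lists, 12 were flagged, and chance flags about 5% of such groups. The skeletal muscle markers of HD replicate 1 lay at 5.55 above the median of the BALB/c MG arrays, its epidermis and hair markers at 0.64, and those of LD replicate 1 at 1.51. Smaller gaps were found for erythroid markers of LD replicate 1 (−0.09), for salivary gland markers of LD replicate 3 (0.21) and for its white adipocyte markers (−0.04). Single genes stood apart in HD replicate 3 (Mdm2, 9.64), LD replicate 1 (Hk1, 8.98, and Atp6v0e2, 7.67), LD replicate 2 (Stc2, 9.82), LD replicate 3 (Mdm2, 8.56) and LD replicate 4 (Pqlc3, 7.21).

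The HD minus LD contrast differed between strains for H2-Ea (−1.94, and −1.67 at a second probe set), Atp6v0e2 (1.05) and Gas5 (−0.85). It differed between 4 hr and 1 month for Slc19a2 (1.86), Aen (1.68), Cd24a (−2.32), Bbip1 (−1.22), Dcxr (1.12), Mdm2 (0.99), Pqlc3 (0.98) and Ccng1 (0.92).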

How the results depend on the processing

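The count of 1339 genes ran between 602 and 1469 when 1 array was left out. It was 10 with plate column and 27 with plate row as a covariate. Without HD replicate 1 and LD replicate 1, a choice made after seeing the data, it was 812. The LD arrays kept in that fit still held muscle transcripts. At an adjusted p under 0.01 the count was 322 and under 0.10 it was 2325. The 690 genes past the study's thresholds became 368 with column and 459 with row. Column left 1 of 15 p53 genes called higher, 0 of 34 luminal genes and 2 of 7 class II genes lower, and 0 of 9 cholesterol genes higher, and row left 10 p53 genes, 0 luminal, 0 class II and 0 cholesterol genes. List medians kept their sign, with p53 at 0.77 with column and 0.69 with row (1.02 without), luminal at −1.86 and −1.12 (−1.45), class II at −1.38 and −0.83 (−1.04) and cholesterol at 0.37 and 0.57 (0.52). Groups share no column, so these fits cannot tell dose from position. Cdkn1a, Aen, Slc19a2, Cd24a and Plet1 passed under both covariates. Of the 96 named probe sets that were called, 89 lost their call with column and 83 with row. No named gene that was called changed sign under any alternative.

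With the replicate number as a block 1066 genes were called, and 709 passed the study's thresholds. Same-numbered arrays had residual correlations from −0.14 to 0.13, so the numbers pair nothing here. The block left 0 genes for the strain difference and 13 for the time difference. Leaving out 1 array gave between 1 and 5 genes for the strain difference and between 1 and 59 for the time difference, which was 334 over all 43 MG arrays. Centring on array medians gave 66.8% of calls higher, against 38.1% before, and the median of the EGF family list was −0.86 without the dimmest 30% of probe sets. The array count limits small differences, and RMA compresses dim values, so folds of dim genes are understated.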
